A study of Homo sapiens with 4 samples.

Results

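The regions described here are the listed ATAC-seq regions in the first 19500000 bases of chromosome 19 (hg19), which cover bands 19p13.3 to 19p13.11 of the short arm. They were chosen by position alone, as all lines of the list on chromosome 19 whose summit (a peak's highest point) lay at or before that position. This gave 7663 summits in 5238 regions, of 371521 summits in 197823 regions in the whole list. A region is a distinct pair of start and end. ATAC-seq uses the Tn5 transposase to insert sequencing adapters where DNA is accessible, and was applied to T47D-MTVL breast cancer cells. This derivative of the luminal line T47D carries 1 integrated luciferase reporter under the MMTV promoter, in all samples alike. The knock-down cells expressed an shRNA against several variants of linker histone H1 (2 samples), and the control cells a random shRNA (2 samples). The labels do not say whether the samples of a group were separate cultures, or how many clones the cells came from.

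The 4 samples share 1 peak list, which is named as differential and whose track line names 225sh against RDsh. How they were compared is not given in the sources used here. That 225sh means the multiH1 knock-down is an assumption, since the labels do not use that name. The list has no value per sample, so that no spread between replicates and no test of knock-down against control can be given for any region below. The fold enrichments and p-values are the authors'. As all solved lines of the list share 1 background, a fold below is relative to that level and not to the control signal at the same site. In it, 1 is added to both the reads and the background. Summits and windows are not independent, so the intervals printed cover counting error only, and all comparisons between stretches of the genome are descriptions without a test.

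The distal short arm of chromosome 19 is known as one of the most gene-dense stretches of the human genome, rich in genes that all cells use. Promoters of such genes are usually free of nucleosomes, which makes them accessible to Tn5. Linker histone H1 binds the nucleosome where DNA enters and leaves it and helps to compact chromatin. Chromosome 19 also carries many of the human KRAB zinc finger genes, which code for DNA-binding repressors and lie in clusters. These clusters are known to carry the heterochromatin mark H3K9me3.

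The segment held many regions, and they were shallow. It had 393 summits and 269 regions per Mb, against 161 summits and 119.7 regions per Mb in the rest of chromosome 19 outside the centromere gap. The ratio was 2.45 for summits (95% exact interval 2.36 to 2.53) and 2.24 for regions (2.15 to 2.34). With 35.1% of the length of the chromosome outside that gap, the segment held 56.9% of its summits (95% Wilson interval 56.1 to 57.8%). Regions covered 7.90% of the segment, against 3.24% of the rest of chromosome 19 and 2.43% of the span of the whole list. The stretch that follows it, up to the centromere gap at 24228302, is known for its zinc finger clusters and had 43.4 summits per Mb. Chromosome 22, another gene-dense chromosome, had 215 summits and 161 regions per Mb, and the whole list 124 and 65.8.

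At the summit, the number of reads (the pileup) could be recovered from the fold and the p-value, over a background of 2.01 reads shared by all solved lines of the list. The lowest listed pileup was 10 reads, and 1 read was worth 0.332 in fold. In the segment the median pileup was 14 reads (25th percentile 12, 75th percentile 17, fold 4.99 at the median) and the highest 103. The median was also 14 in the rest of chromosome 19 and on chromosome 22, and 15 in the whole list. Of the 7663 summits, 1144 had 20 reads or more, which is 14.9% (95% Wilson interval 14.1 to 15.7%). The same share was 14.2% in the rest of chromosome 19 (13.3 to 15.1%), 12.8% on chromosome 22 (12.1 to 13.6%) and 26.5% in the whole list (26.4 to 26.6%). Summits of 50 reads or more were fewer still, at 18 or 0.235% (0.149 to 0.371%), against 1.00% in the rest of chromosome 19 (0.775 to 1.29%) and 1.44% in the whole list. On chromosomes 19 and 22 the share at 20 reads thus lay below that of the list, and the intervals of the segment and the rest of chromosome 19 overlapped.

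**Figure D1:**
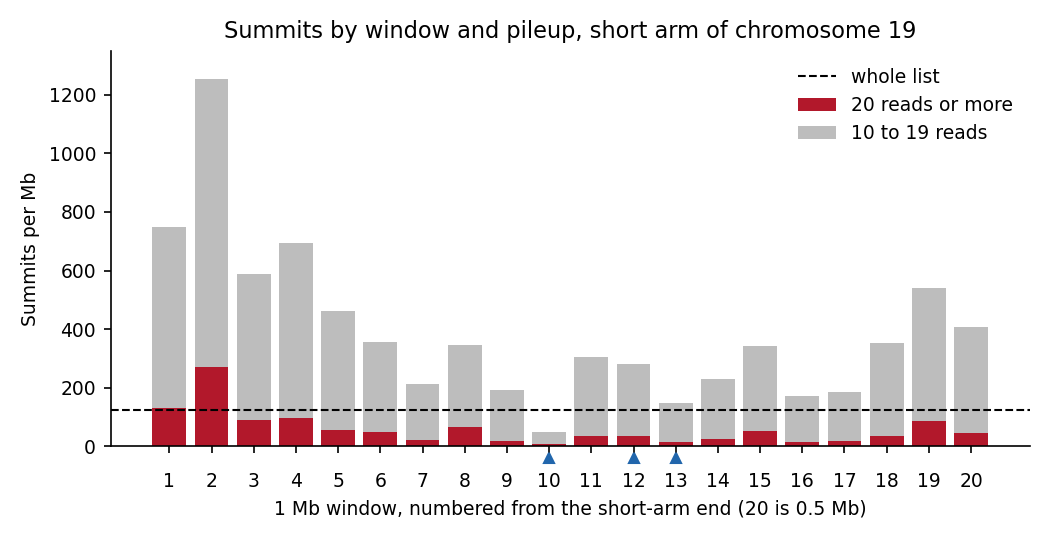
Summits per Mb in each 1 Mb window of the short arm of chromosome 19, numbered from its end. Red bars are summits of 20 reads or more, grey bars those of 10 to 19 reads, and the dashed line is the density of the whole list, 124 per Mb. Triangles mark windows 10, 12 and 13, known to hold zinc finger gene clusters. Window 2 is highest with 1255 summits and window 10 lowest with 48.

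In windows of 1 Mb the counts ranged 26.1-fold, from 48 to 1255 summits over the 19 full windows, with a median of 341. This ratio depends on where windows begin and how long they are, and was 15.5 with windows shifted by 0.5 Mb and 76.8 in windows of 0.5 Mb. The median 1 Mb window of the genome had 19 summits and the mean window 122. All 19 full windows lay above the genome's median and 18 above its mean, the exception being window 10, from 9 to 10 Mb. The densest 10% of 1 Mb windows of the genome, each with at least 318 summits, included 10 of the 19. These were windows 1 to 6, 8, 15, 18 and 19. The counts fell into 4 stretches, whose limits were set after the counts were seen.

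The first stretch is the end of the arm. The first 2 Mb make up 10.3% of the segment and held 26.2% of its summits (95% Wilson interval 25.2 to 27.1%), at 1002 per Mb. Window 1, which is known to hold PTBP1, a regulator of splicing, and ELANE, the neutrophil elastase, had 749 summits in 450 regions. Its first 200 kb had no listed summit, and the first listed base was 199374. Window 2, known to hold the tumour suppressor kinase STK11 and the E-protein transcription factor TCF3, had 1255 summits in 680 regions and ranked 48 among 3048 windows of the genome. Regions covered 24.1% of window 2 and 16.3% of window 1. Genes are named here for the window they are known to lie in, and no summit was assigned to a gene.

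From 2 to 6 Mb the density was 525 summits per Mb. Window 3 had 587 summits and is known to hold DOT1L, which methylates histone H3 at lysine 79, and the stress-response gene GADD45B. Window 4 had 693 and is known for the G protein subunit GNA11, the transcription factor NFIC and the translation elongation factor EEF2. Window 5 had 462 summits and holds UHRF1, needed for maintenance of DNA methylation. Window 6, with SAFB, a nuclear matrix-binding protein, and the mitochondrial protease LONP1, had 357. Counts were thus lower in each of windows 5 and 6 than in any of windows 1 to 4.

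From 6 to 17 Mb the density was 224 summits per Mb, and each of these 11 windows had at most 346. Window 7, with MLLT1 and the complement gene C3, had 214 summits. Window 8, known for the insulin receptor gene INSR, had 346, of which 153 lay in its last 100 kb, whereas its median 100 kb had 13.5. Window 9, with the RNA-binding proteins ELAVL1 and HNRNPM, had 194. Window 11 holds the DNA methyltransferase DNMT1, the adhesion molecule ICAM1 and the oxidative stress sensor KEAP1, and had 304. Window 12 had 281 and is known for SMARCA4, the ATPase of SWI/SNF remodelling complexes. Window 14, with the chaperone CALR, the transcription factor NFIX and the calcium channel gene CACNA1A, had 230. Window 15 had 341 and holds PRKACA, the catalytic subunit of protein kinase A. Window 16 had 172 and is known to hold the receptor gene NOTCH3, and window 17, with the transcription factor KLF2, had 187.

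Towards the centromere the counts were again higher, at 438 per Mb from 17 Mb on. Window 18, which holds the myosin gene MYO9B and the kinase JAK3, had 352 summits. Window 19 had 541 and is known for the AP-1 subunit JUND, the stress cytokine GDF15 and the RNA helicase UPF1 of nonsense-mediated decay. The last 0.5 Mb, with MEF2B and NCAN, had 203. No region crossed the limit of the segment. The last summit inside it, at 19497071, had 12 reads and the first outside, at 19516102, had 11, and the 500 kb inside and outside the limit held 203 and 148 summits.

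The label of the segment places it outside zinc finger clusters, and the data can be set against this only by position. Within the segment lie the zinc finger clusters of band 19p13.2, known to fall in windows 10, 12 and 13. PLPP2 and MAU2 were taken from background knowledge to lie near the ends of the segment, and genes of the segment beyond them were not counted. In the order of the RefSeq gene table (GRCh38, used for names and order only), 558 protein-coding genes follow each other from PLPP2 to MAU2. Among them 47 (8.42%) have a ZNF symbol. Of these 40 lay in 3 unbroken runs, of 24 genes from ZNF627 to ZNF791, 11 from ZNF699 to ZNF846 and 5 from ZNF554 to ZNF77. The rule therefore takes in zinc finger genes.

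The 3 windows differed, with 48, 281 and 147 summits in windows 10, 12 and 13. Together they had 159 summits per Mb, against 436 in the other windows, a ratio of 0.364 (95% exact interval 0.331 to 0.400). The other windows were not checked to be free of zinc finger genes, and the run from ZNF554 to ZNF77 was not placed in a window. Set against the 8 other windows from 6 to 17 Mb, which had 248.5 per Mb, the ratio was 0.638 (0.577 to 0.706). Both ratios lean on window 10: without it, a comparison chosen after the data were seen, they were 0.491 (0.445 to 0.542) and 0.861 (0.774 to 0.956). Window 12 had more summits than 5 of these 8 windows. Its windows of 100 kb from 11700001 on had 5 summits each, whereas its median 100 kb had 29. The ratios are thus of whole windows, not of the clusters alone. Window 10 had 48 summits in 33 regions, of which 32 summits lay in its last 100 kb. Window 13 had 147, of which the median 100 kb held 5.5, and it is also known to hold the AP-1 gene JUNB near its end. The highest pileup in the 3 windows was 41 reads, and 11.97% of their summits had 20 reads or more (9.36 to 15.2%), against 15.1% in the others (14.3 to 15.97%).

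At a finer scale, runs of at least 4 windows of 100 kb with at most 7 summits each, a rule set after the counts were seen, numbered 4. That counts are higher outside such a run follows from the rule. The longest ran from 8700001 to 9900000 and held 27 summits in 1.2 Mb, with 141 in the 500 kb before it and 120 in the 500 kb after it. In gene order the part of the arm around it includes 19 genes from OR1M1 to ZNF846, of which 7 are olfactory receptor genes and 12 ZNF genes. These genes were not placed by position, and other genes of the stretch were not listed. The next ran from 11700001 to 12700000, in windows 12 and 13, with 39 summits, with 183 in the 500 kb before it and 200 in the 500 kb after it. Shorter ones ran from 13400001 to 13800000 with 7 summits, in the window of CACNA1A and with 13 in the 100 kb after it, and from 15700001 to 16100000 with 18 and with 11 in the 100 kb before it, across windows 16 and 17, of which window 16 is known to hold cytochrome P450 genes such as CYP4F8. Of the segment's length 15.4% lay in these 4 stretches, but of its summits 1.19%. A low count there does not show closed chromatin, since sites under 10 reads are not listed and mappability was not analysed here.

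**Figure D2:**
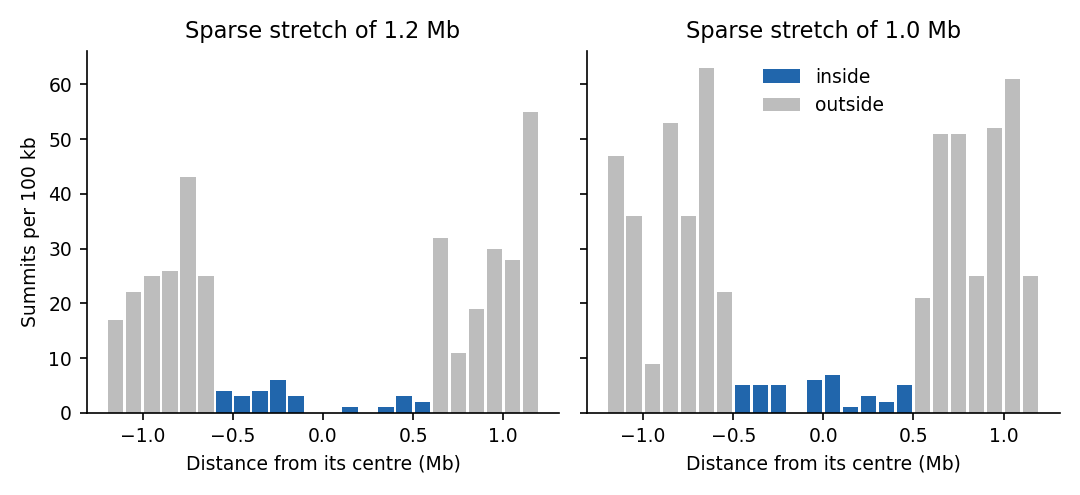
Summits per 100 kb around the centres of the longest sparse stretches of the segment, 1.2 Mb with 27 summits (left) and 1.0 Mb with 39 (right). Blue bars lie inside the stretch and grey bars outside, where the 100 kb next to each edge held 25 and 32 summits on the left and 22 and 21 on the right.

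The longest parts without any listed region lay in the first of these stretches, from 9432347 to 9695170 (263 kb) and from 9171033 to 9432168 (261 kb). The next longest, from 14888076 to 15062823 (175 kb), lies across the border of windows 15 and 16, near the olfactory receptor gene OR7C1. Of the 195 windows of 100 kb, 9 had no summit, among them 1 to 100000, 100001 to 200000, 6900001 to 7000000, 7300001 to 7400000 and 9200001 to 9300000. Whether reads can map throughout these windows was not analysed here. The median was 31 summits. At the other end, the 19 densest held 33.1% of the summits (95% Wilson interval 32.0 to 34.1%), and 13 of them lay in the first 2 Mb.

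The window of 100 kb with the most summits ran from 1200001 to 1300000 and had 224 in 100 regions, with a highest pileup of 40 reads. Next to it, 1100001 to 1200000 had 173 with a highest pileup of 83, and 1000001 to 1100000 had 158 with a highest of 57. These 3 adjoin each other in window 2, as does 1400001 to 1500000 with 151 a little further on. Far from them, 7900001 to 8000000 had 153 summits in 76 regions. Its highest pileup was 55 reads and 29 of its summits had 20 reads or more, whereas the 300 kb from 8000001 on had at most 25 summits in each 100 kb.

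Windows with more summits also had a larger share of strong ones. Across the 19 full windows the count and the share of summits of 20 reads or more had a Pearson r of 0.74 and a Spearman rho of 0.67, given as a description, since windows share the same libraries and the same minimum of 10 reads. The share was 21.6% in window 2 (95% Wilson interval 19.4 to 24.0%) and 17.4% in window 1 (14.8 to 20.2%). It was 8.76% in window 9 (5.54 to 13.6%), 9.30% in window 16 (5.81 to 14.6%) and 9.66% in window 18 (6.995 to 13.195%). Window 8 stood above its neighbours, at 18.8% (15.02 to 23.2%). The first 2 Mb held 401 of the 1144 summits of 20 reads or more (35.1%) and 13 of the 18 of 50 reads or more.

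**Figure D3:**
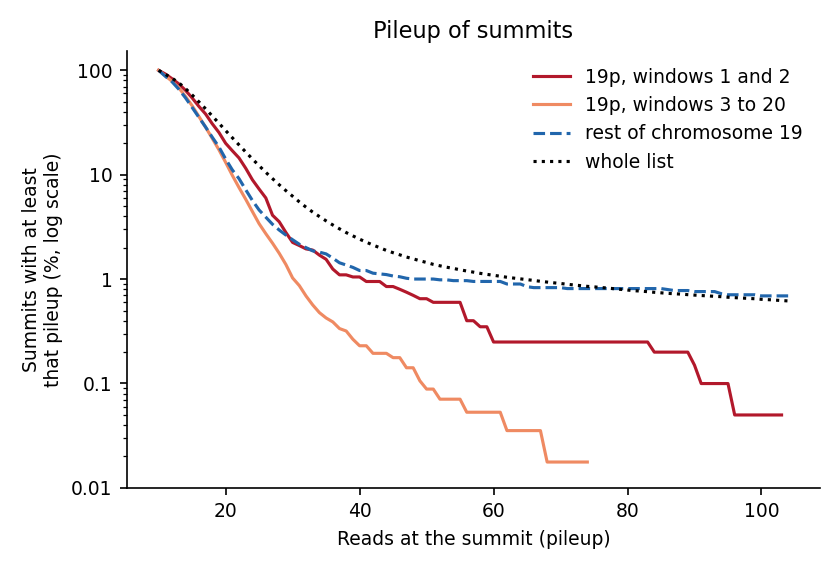
Share of summits (percent, log scale) with at least the pileup on the x axis, for windows 1 and 2 and windows 3 to 20 of the segment, the rest of chromosome 19 and the whole list. The curve of windows 1 and 2 ends at 103 reads, whereas the curves of the rest of chromosome 19 and the whole list run on past it. Their highest values, 1624 and 245280 reads, were not solved but computed from the fold with the shared background.

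Strong summits were also counted in windows of like density. Of the 10 windows in the genome's densest 10%, 9 had a lower share of summits at 20 reads or more than the median of other dense windows with a count within 10% of theirs, window 8 being the exception. In window 2 it was 21.6%, against a median of 28.1% (20.4 to 45.4%) in 19 other windows, of which 1 was lower. In window 4 it was 13.997%, against 23.02% in 39 windows, of which 3 were lower. In window 18 it was 9.66%, against 17.8% in 52 windows, of which 2 were lower. Other windows lay well inside the range of those they were set against. In window 1, 9 of 38 were lower, in window 19 it was 12 of 50, in window 6 it was 13 of 50, in window 15 it was 18 of 48 and in window 8 it was 25 of 49. In windows 3 and 5 it was 5 of 37 and 1 of 33. Pooled, the share was 16.3% in the 10 windows (95% Wilson interval 15.4 to 17.3%) and 29.9% in the 295 other dense windows (29.7 to 30.1%). These pooled shares are not of like density, since the other windows held up to 3399 summits and the 10 at most 1255. Low shares were not particular to the segment. The 5 dense windows lying wholly or partly in the rest of chromosome 19 had a median of 13.1% (10.5 to 17.6%). The lowest of them, from 19 to 20 Mb, has 203 of its 351 summits in the segment. The others had 11.2%, 13.1%, 16.6% and 17.6%. The 6 on chromosome 22 had a median of 12.99% (8.56 to 19.2%). All of these lay below the median of 23.7% over the 295, which include the window from 19 to 20 Mb. That median is not of like density either, since these windows held 337 to 410 summits on chromosome 19 and 356 to 929 on chromosome 22. For windows 6 and 15 of the segment, with 357 and 341 summits, the median at like counts was 17.6% and 18.4%. Copy number, GC content and the reads that went into each part of the list were not analysed here.

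**Figure D4:**
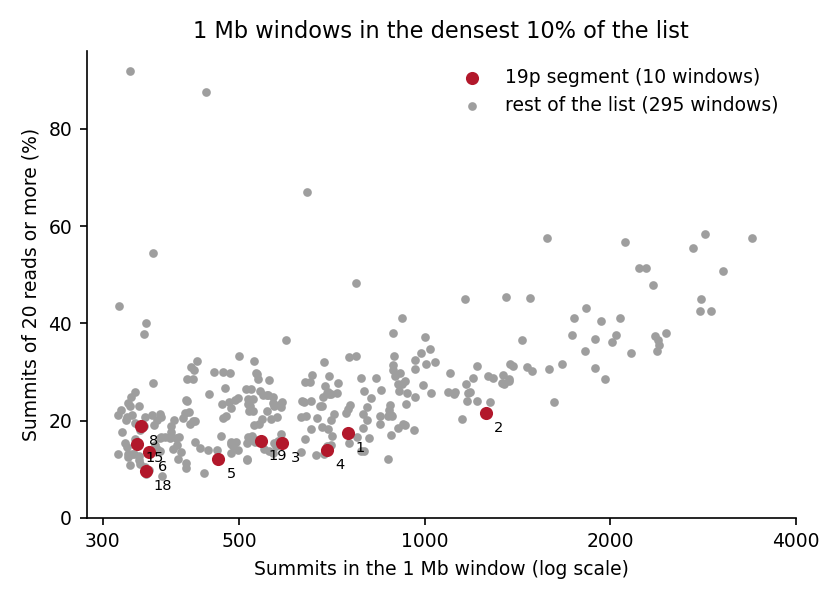
Share of summits of 20 reads or more (percent) against the number of summits (log scale) in each 1 Mb window of the genome with at least 318 summits. The 10 windows of the segment (red, with their numbers) had shares from 9.66% to 21.6% with a median of 15.3%, and the 295 others (grey) a median of 23.7%. The grey window from 19 to 20 Mb of chromosome 19 holds the last 0.5 Mb of the segment.

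Most regions were short and simple. The median width was 201 bp (95% interval of the median 196 to 207, 25th percentile 136, 75th percentile 341), with a range from 96 to 4795 bp, against 187 bp in the rest of chromosome 19 and 208 bp in the whole list. Regions with a summit of 20 reads or more had a median width of 429.5 bp. A single summit was found in 4001 regions, with a median width of 164 bp and a median pileup of 13 reads. The 1237 regions with several summits (23.6%, 95% Wilson interval 22.5 to 24.8%) had a median width of 471 bp, held 47.8% of the summits and reached a median of 19 reads at their highest. This share was 18.75% in the rest of chromosome 19 (17.6 to 19.9%) and 28.2% in the whole list. In the first 2 Mb it was 34.2% (31.5 to 37.0%), against 20.9% from 2 to 6 Mb, 20.4% from 6 to 17 Mb and 21.3% beyond. The end of the arm thus had more regions per Mb and a larger share of regions with several summits than the other stretches. There were 133 regions of 5 summits or more, of which 55 lay in the first 2 Mb, and 107 of them reached 20 reads.

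Summits within a region lay a median of 156 bp apart (25th percentile 113, 75th percentile 216, 2425 pairs), and 82.8% of these distances were from 50 to under 250 bp. Neighbouring regions were a median of 1007 bp apart from summit to summit, with a 75th percentile of 2934 bp. How summits are split depends on options of the peak caller that the sources used here do not give.

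**Figure D5:**
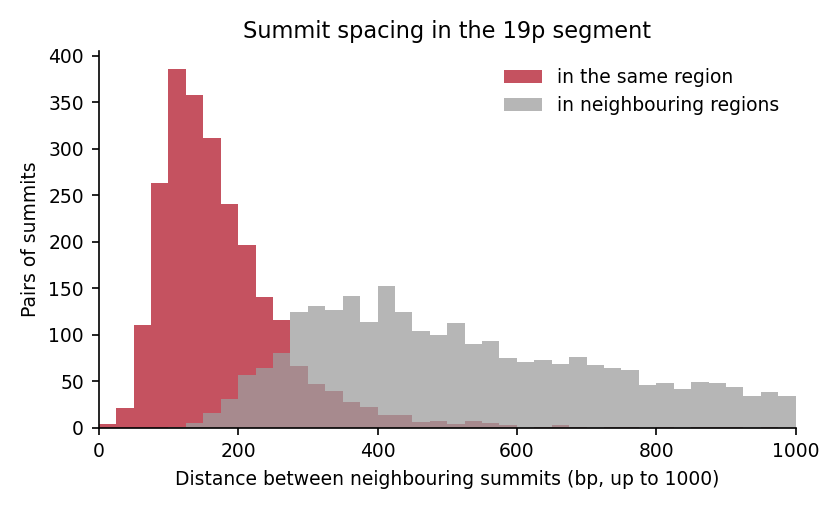
Number of pairs of neighbouring summits by distance (bp, bins of 25 bp, up to 1000 bp). Red bars are pairs in the same region, with a median of 156 bp, and grey bars pairs in neighbouring regions, with a median of 1007 bp.

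The strongest region of the segment lay in window 1, from 876749 to 880595 (3847 bp). It had 12 summits from 10 to 103 reads, 5 of them of 50 reads or more, and a fold of 34.6 at the highest (879000). The second, from 1141952 to 1142275 in window 2, was a narrow region of 324 bp with 83 reads. The third, from 4510633 to 4513695 in window 5, was 3063 bp wide and reached 74 reads. In contrast to these, the region from 16676931 to 16678291 in window 17 had 1 summit of 67 reads in 1361 bp, in a window where 10.2% of summits had 20 reads or more.

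Then came 1164387 to 1165499 with 59 reads and 1049397 to 1050222 with 57, both in window 2. The regions from 465166 to 467444, from 602896 to 604276, from 1195227 to 1198589 and from 7934167 to 7936404 each reached 55 reads. Of these 10 strongest regions, 7 lay in the first 2 Mb, and the last of them lies in the dense 100 kb at the end of window 8. In all, 12 regions of the segment reached 50 reads, 8 of them in the first 2 Mb and 3 beyond 6 Mb.

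The widest region, from 1467332 to 1472126 in window 2, spanned 4795 bp and had 26 summits, but its highest pileup was 35 reads. The next in width were the strongest region above, then 1195227 to 1198589 (3363 bp, 4 summits), 4510633 to 4513695 (7 summits) and 3172838 to 3175565 (2728 bp, 3 summits, at most 19 reads). Among these 5 the widest was thus not the highest, though its 35 reads lay far above the segment's median summit of 14. Over all regions of the segment, those with 1 summit had a median of 164 bp and 13 reads. Those of 5 summits or more had a median of 1216 bp and of 23 reads at their highest. Of 16 regions of 2 kb or more, 9 lay in the first 2 Mb and 14 in the first 6 Mb. None of the 86 regions of 10 kb or more in the whole list lay in the segment. It held 5238 of the 197823 regions of all widths, a share at which few of the 86 would fall there.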

How the data were processed

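The submitters' processing notes name Bowtie 1.1.2, MACS2 and the build hg19. The sources used here give no options, duplicate handling or pooling of samples. The deposited fold is the ratio of pileup to background at the summit, with 1 added to each. The deposited −log10 p-value and −log10 q-value columns belong to the same summit, and the deposited score is 10 times −log10 p within 1 unit. Positions are hg19, counted from 1.

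The pileup was solved from fold = (pileup + 1) / (background + 1) and the upper Poisson tail above the pileup. In the segment all 7663 summits gave a whole number (tolerance 0.02 reads or less, largest deviation 1.5e-05). Over the whole list 99.6% of lines were solved. The other lines, with the smallest p-values, were given the same background, which was not checked for them. The solver was tested on simulated data. A region was placed in the window of its highest summit. The centromere gap (24228302 to 27731785) is the longest stretch of chromosome 19 without a region. Shares carry Wilson intervals and ratios exact binomial intervals. Without molecular identifiers, PCR reads need not be independent molecules. The depth per sample is unknown, as no read totals were given.

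Named items are every 1 Mb window, the 5 windows of 100 kb with the most and the fewest summits, the 10 strongest and 5 widest regions and the 3 longest empty stretches. Members, lists and comparisons were chosen with earlier results of these data known. Genes were placed in windows from background knowledge of hg19. Of 51 such genes all were in the RefSeq table (GRCh38), and 0 pairs stood in another order there. No genome of the list's build was used, so no sequence is printed. Python 3.11.15, numpy 2.4.6, scipy 1.17.1, pandas 2.3.3 and matplotlib 3.10.9 were used.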

Additional observations from a re-analysis of the deposited data

How the results depend on the processing

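Of 37 alternatives, 10 left a value within 1.5 times (counts) or within its interval, and 27 moved it. Whether an alternative reversed a result was not scored. The summit count of 7663 became 1144 at 20 reads or more, 2955 in the upper 50% by fold and 1490 at a −log10 q of 10, by construction. The density ratio to the rest of chromosome 19 (2.45) ran from 2.24 to 2.71: 2.24 with each region counted once, 2.24 with regions within 100 bp merged, 2.58 at 20 reads or more, 2.66 in the top 50% by fold, 2.58 at a −log10 q of 10 and 2.71 without windows 10, 12 and 13. The ratio of the densest to the sparsest window (26.1) was 38.7 at 20 reads or more, 15.5 with windows shifted by 0.5 Mb and 76.8 in windows of 0.5 Mb. The share in the densest 10% of 100 kb windows (33.1%) was 26.8% over regions counted once, 43.6% for summits of at least 20 reads, 39.1% in the top 50% by fold and 35.1% in windows of 50 kb. Summits of 20 reads or more (14.9%) were 15.8% with each region counted once, and the share was 1.34% at 30 reads and 48.1% at 15 reads. Regions with several summits (23.6%) were 27.1% in the top 50% by fold. The median width (201 bp) was 429.5 bp at 20 reads or more and 328 bp in the top 50%. The ratio of zinc finger windows to the others (0.364) was 0.403 over regions counted once, 0.288 for summits of at least 20 reads, 0.325 in the top 50%, 0.460 with windows shifted by 0.5 Mb and, chosen after seeing the data, 0.491 with windows 12 and 13 alone. Causes not given by construction were not tested. No paired analysis was possible because the 4 samples share 1 list without separate columns, so leaving out a replicate was not possible either. Sites under 10 reads over a background of 2.01 are not listed, which limits every count.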
